A study of Danio rerio with 9 samples.

Results

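The sodium-potassium ATPase is the pump that keeps sodium low and potassium high inside animal cells, and its subunit genes were followed in the whole inner ear of adult zebrafish after sound exposure. Its members were taken as the array probes whose gene name begins with atp1a or atp1b and a digit, or whose description names Na+/K+ transport, control spots left out. The rule found 18 of the 21495 probes, and all 18 met it both by name and by description. They belong to 13 genes of the 18561 gene names that the probes carry. Values are given for 14 of these probes, from 9 genes. Of the 9, 3 encode alpha subunits (5 probes) and 6 encode beta subunits (9 probes), and 5 genes had 2 probes.

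The samples fall into 3 groups: control fish without sound exposure, fish 2 days after exposure to a low-frequency tone (Day 2) and fish 4 days after it (Day 4). RNA of both whole ears (saccule, lagena, utricle and semicircular canals) of 18 to 20 fish made up 1 pool per group, which was labelled with 1 dye and put on 3 arrays. The 3 arrays of a group are therefore technical replicates, p-values measure only the spread between hybridizations, and variation between fish was not measured. In RNA from whole ears, fewer cells of a type and less RNA per cell cannot be told apart.

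The alpha subunit is the catalytic part of the pump. It binds ATP and the inhibitor ouabain, is phosphorylated and dephosphorylated in each transport cycle, and moves sodium out of the cell and potassium in. The beta subunit is a glycoprotein that the alpha subunit needs to fold and to reach the membrane, and small FXYD proteins adjust the activity of the pair. In the mammalian inner ear, pumps in the basolateral membranes of strial marginal cells and vestibular dark cells work with the cotransporter NKCC1 to secrete the potassium of the endolymph, the fluid that bathes the hair bundles. In zebrafish larvae, pump subunit genes are needed for otolith formation and for the growth of the semicircular canals. The same pump runs in neurons, glia, muscle, blood cells and the ionocytes of skin and gill, so a subunit transcript is no marker of one ear cell type.

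No subunit probe was significantly regulated in any comparison, which means a Benjamini-Hochberg adjusted P of at most 0.05 in limma together with a fold change of at least 1.4. In Day 2:Control, 0 of the 14 subunit probes passed, against 0.735% of all probes. In Day 4:Control, 0 of 14 passed, against 0.279% of all probes, and in Day 4:Day 2, 0 of 14 passed, against 0.0651%. At an unadjusted P under 0.05, Day 2:Control and Day 4:Control each had 0 subunit probes and Day 4:Day 2 had 2. These 2 ranked 1107 and 1312 by P among all 21495 probes, so at least 1312 probes passed that limit in Day 4:Day 2. The count of 2 is therefore not read as a result about the pump. With so few calls over the whole array, a count of 0 in 14 probes is what the share of all probes would give and is no result about the pump.

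Signals below are log2 values relative to the median probe of the same array, so that 0 is that median and 1 unit is a doubling. Levels are compared only within a probe, since probes differ in how strongly they bind. Of the 14 probes, 10 were well above background on all 9 arrays, as were 8024 of all probes, and a further one, 1 of the 2 atp1b3a probes, was so on all but 1 array. Changes are given for these 11 probes, which cover atp1a3b and the 6 beta genes.

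**Figure D1:**
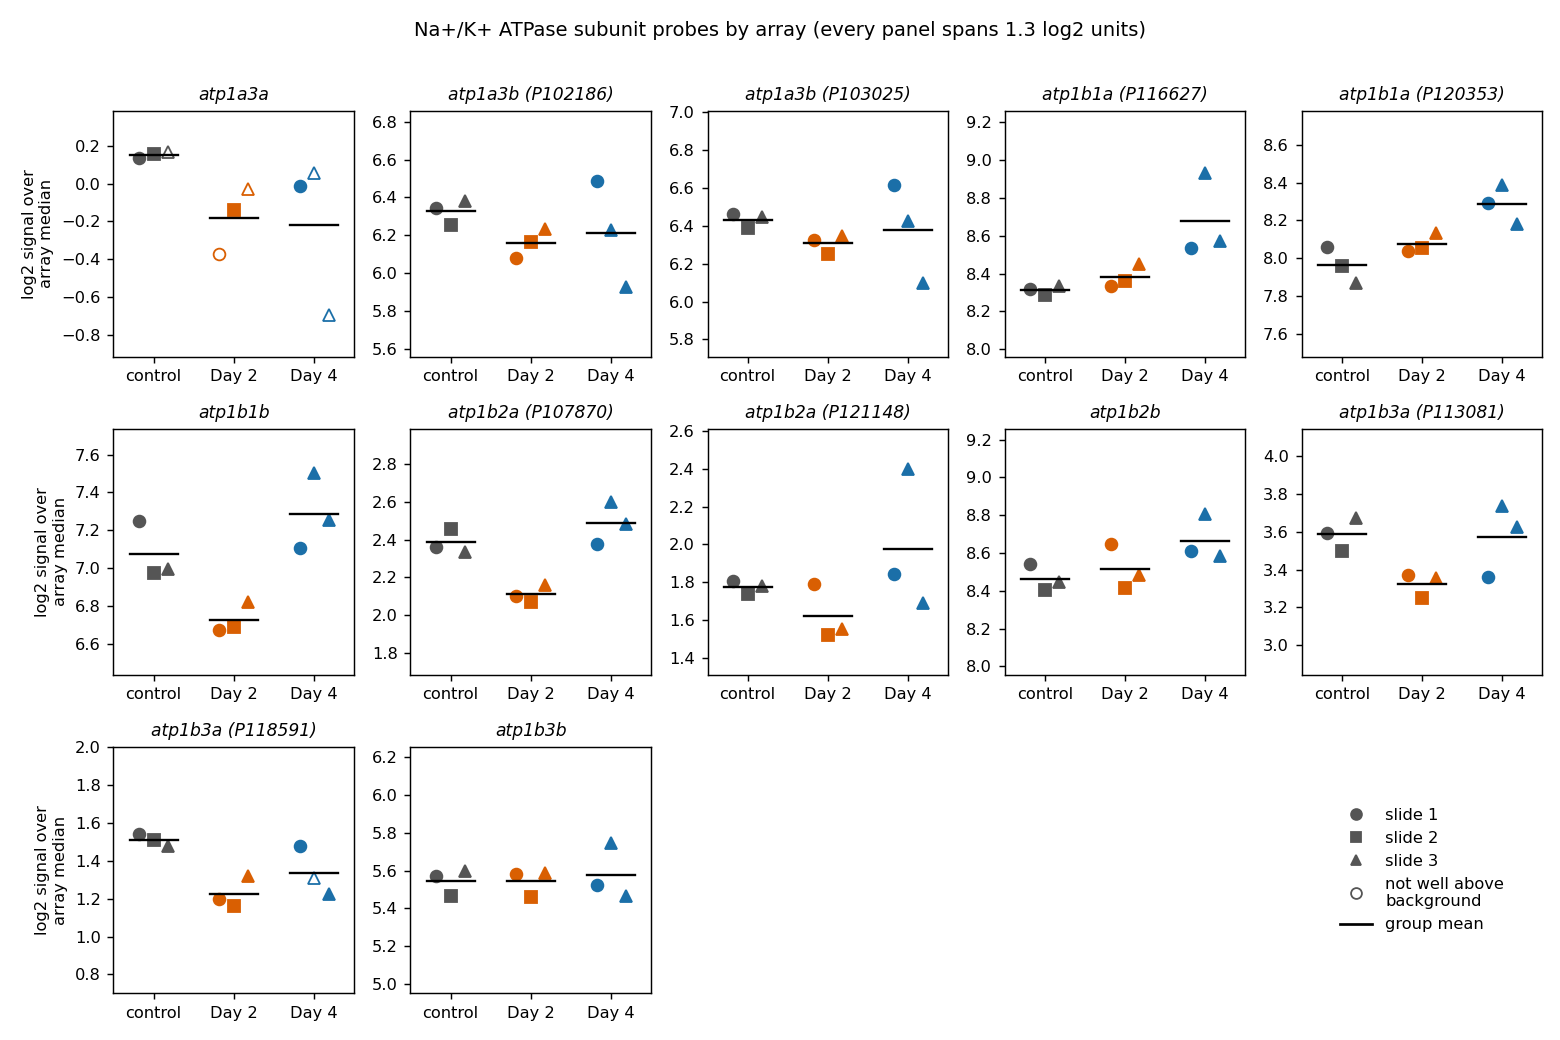
Log2 signal over the array median (vertical axis) of the 11 measured subunit probes and of atp1a3a in control, Day 2 and Day 4 ears, 1 point per array; marker shapes give the slide, open markers a signal not well above background, and bars the group means. The atp1b1b values of Day 2 ears lie below all 6 others, and both atp1b1a probes are highest on Day 4.

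The alpha 3 subunit is known in mammals as the pump of neurons, including those that contact hair cells. Its zebrafish gene atp1a3b had 2 probes that lie close together, at chr13:18679069-18679128 and chr13:18678985-18679044 in the danRer2 build that the array files name. They gave 6.34, 6.25 and 6.38 and 6.46, 6.39 and 6.45 in control ears, and 6.08, 6.17 and 6.23 and 6.33, 6.25 and 6.35 in Day 2 ears. Day 2 arrays were below control arrays with both probes. In Day 4 ears they gave 6.49, 6.23 and 5.93 and 6.62, 6.42 and 6.10. The Day 4 arrays spread over more than the other groups together, and replicate 1 was the highest and replicate 3 the lowest with both probes. Day 2:Control gave log2 fold changes of -0.17 ± 0.17 and -0.12 ± 0.15 (SE of the limma fit, as for all fitted changes). Day 4:Control gave -0.11 ± 0.18 and -0.05 ± 0.16, and Day 4:Day 2 gave 0.06 ± 0.18 and 0.07 ± 0.16.

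The sister gene atp1a3a was near the limit of the array. Its probe gave 0.14, 0.15 and 0.17 in control ears, -0.37, -0.14 and -0.03 in Day 2 ears and -0.01, 0.06 and -0.70 in Day 4 ears. Only 2 control arrays, 1 Day 2 array and 1 Day 4 array were well above background, so no size of change is given. Both probes for atp1a2a were not well above background on any of the 9 arrays. The alpha 2 subunit is the form of muscle and astrocytes in mammals, and the 2 atp1a2a probes have the same coordinates, chr2:46365315-46365374, so that they are no independent reading of that gene.

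In each comparison the largest fitted change among the 11 measured probes was that of a beta probe, with atp1a3b the only alpha gene among them. Beta 1 is the form found in most epithelia. For atp1b1a, probe A_15_P116627 gave 8.32, 8.29 and 8.34 in control ears, 8.33, 8.36 and 8.45 in Day 2 ears and 8.53, 8.93 and 8.57 in Day 4 ears. Probe A_15_P120353, whose listed span at chr6:13768675-13768854 contains that of the first, gave 8.06, 7.96 and 7.87 in control ears, 8.04, 8.05 and 8.13 in Day 2 ears and 8.29, 8.39 and 8.18 in Day 4 ears. With both probes, every Day 4 array was above every control array and every Day 2 array. Day 4:Control gave log2 fold changes of 0.33 ± 0.15 and 0.32 ± 0.14 (95% intervals, not adjusted for the number of probes, -0.04 to 0.71 and -0.02 to 0.66, adjusted P = 0.515 for each, limma). Day 4:Day 2 gave 0.26 ± 0.15 and 0.21 ± 0.14, and Day 2:Control gave 0.07 ± 0.14 and 0.11 ± 0.13. Within slides 1 and 3, Day 4:Control was 0.21 and 0.42 with the first probe and 0.23 and 0.41 with the second. Without Day 4 replicate 2, the highest array with both probes, the Day 4:Control values were 0.23 and 0.27.

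The second beta 1 gene, atp1b1b, had the largest fitted change among the 11 probes. Its probe gave 7.25, 6.97 and 6.99 in control ears, 6.67, 6.69 and 6.82 in Day 2 ears and 7.11, 7.50 and 7.26 in Day 4 ears. The Day 2 arrays were below all others, and the Day 4 arrays overlapped with control arrays. Day 4:Day 2 was 0.51 ± 0.17, a fold change of 1.43 (95% interval 0.10 to 0.93, unadjusted P = 0.0232, adjusted P = 0.450, limma). Day 2:Control was -0.35 ± 0.16 (95% interval -0.73 to 0.04, adjusted P = 0.631, limma), and Day 4:Control was 0.17 ± 0.17. Within slides, Day 4:Day 2 was 0.43 on slide 1 and 0.56 on slide 3, and Day 2:Control was -0.58, -0.29 and -0.17 on slides 1, 2 and 3. Day 4:Control was -0.14 on slide 1 and 0.38 on slide 3, so that its sign depended on the slide. The Day 4:Day 2 value was 0.42 without Day 4 replicate 2.

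The atp1b1b call in Day 4:Day 2 depended on how the error was estimated. When probes near background were removed before the fit, 954 of 10040 probes were called (9.5%) and atp1b1b was 1 of them (adjusted P = 0.00671, limma). With an intensity trend and robust estimation of the variance, 962 of 21495 probes were called (4.48%), again with atp1b1b (adjusted P = 0.00393, limma). Over all alternatives its adjusted P ran from 0.00393 to 1.00. In the fit with dim probes removed, the first atp1b2a probe also had an adjusted P of 0.0469 in Day 4:Day 2, but its change was 1.29-fold. No other subunit probe reached an adjusted P of 0.05 in these 2 fits, in which 15.3% and 6.21% of probes did so in Day 4:Day 2 whatever their fold.

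The beta 2 subunit was first described in the mouse as an adhesion molecule on glia, and it is also found in the potassium-secreting epithelia of the mammalian ear. For atp1b2a, probe A_15_P107870 at chr15:10604300-10604359 gave 2.36, 2.46 and 2.34 in control ears, 2.10, 2.07 and 2.16 in Day 2 ears and 2.38, 2.60 and 2.48 in Day 4 ears. The Day 2 arrays were again below all others. Day 4:Day 2 was 0.37 ± 0.13 (95% interval 0.05 to 0.69, unadjusted P = 0.0289, adjusted P = 0.473, limma), and Day 2:Control was -0.27 ± 0.12 (adjusted P = 0.601, limma). On slides 1 and 3, Day 4:Day 2 was 0.28 and 0.38. The second probe, at chr15:10604180-10604239, was more variable, with 1.80, 1.74 and 1.78 in control ears, 1.79, 1.52 and 1.55 in Day 2 ears and 1.84, 2.40 and 1.69 in Day 4 ears. Its groups overlapped in Day 4:Day 2, where it gave 0.32 ± 0.23, and without Day 4 replicate 2 that value was 0.11.

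The sister gene atp1b2b gave 8.54, 8.40 and 8.44 in control ears, 8.65, 8.42 and 8.48 in Day 2 ears and 8.61, 8.81 and 8.58 in Day 4 ears. Day 4 arrays were above control arrays but overlapped with Day 2 arrays. The log2 fold change was 0.05 ± 0.13 for Day 2:Control, 0.17 ± 0.14 for Day 4:Control and 0.12 ± 0.14 for Day 4:Day 2, with adjusted P of 0.518 or more in each (limma).

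The beta 3 subunit is widely expressed in mammals. For atp1b3a, the probe at chr24:25264239-25264298 gave 3.60, 3.50 and 3.67 in control ears, 3.37, 3.25 and 3.35 in Day 2 ears and 3.36, 3.74 and 3.63 in Day 4 ears. The other probe, at chr24:25263421-25263479, gave 1.54, 1.51 and 1.48 in control ears, 1.20, 1.16 and 1.32 in Day 2 ears and 1.48, 1.31 and 1.22 in Day 4 ears, with Day 4 replicate 2 not well above background. Day 2 arrays were below control arrays with both probes, by -0.26 ± 0.13 and -0.28 ± 0.13 in the fit (95% intervals -0.58 to 0.05 and -0.59 to 0.03). The 2 probes differed on Day 4, where the first overlapped with control and the second gave no Day 4 array above a control array. The atp1b3b probe gave 5.57, 5.46 and 5.60 in control ears, 5.58, 5.46 and 5.59 in Day 2 ears and 5.52, 5.75 and 5.46 in Day 4 ears. Its fitted changes were -0.00, -0.02 and -0.01, with 95% intervals no wider than -0.35 to 0.32, so that it was the flattest of the 11 probes.

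**Figure D2:**
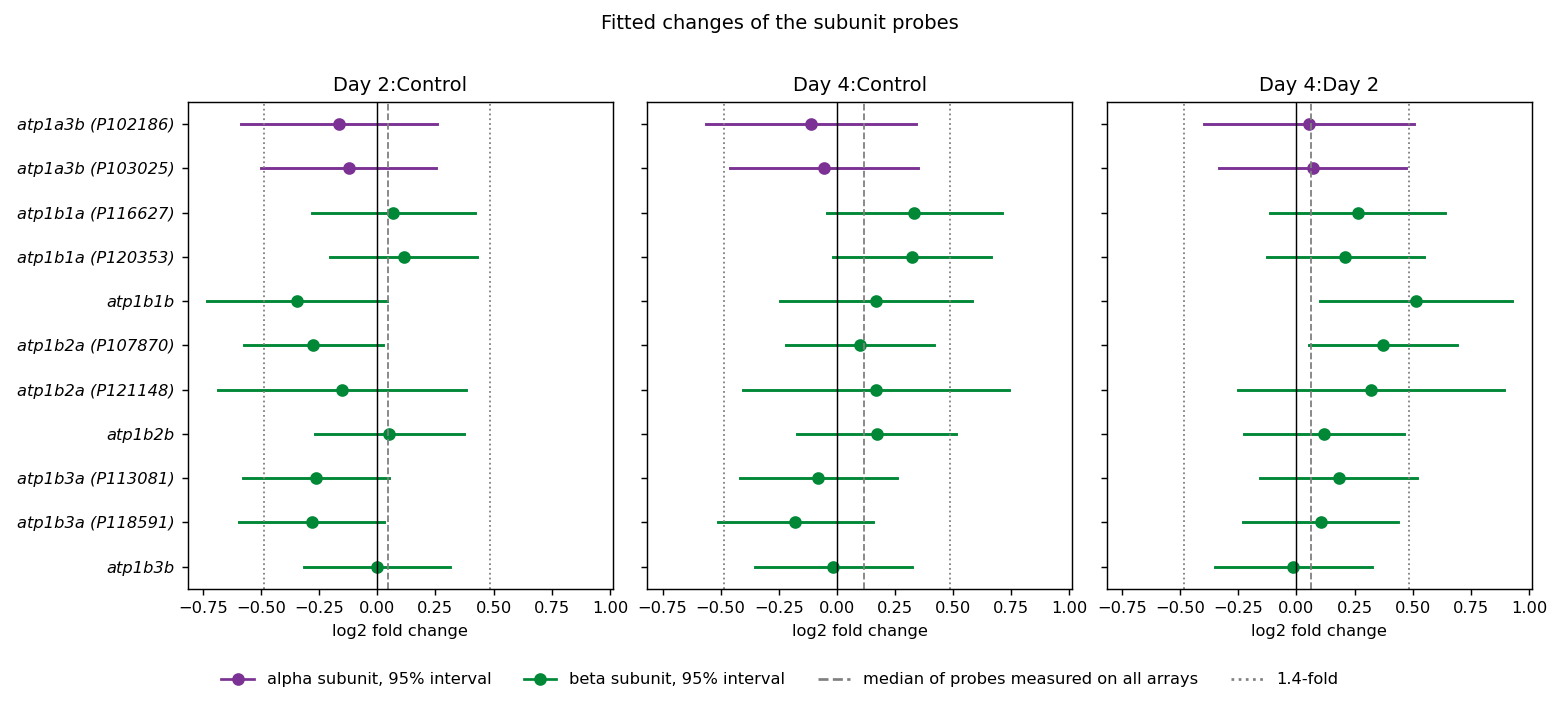
Fitted log2 fold change (horizontal axis) of the 11 measured subunit probes in the 3 comparisons, with 95% intervals from limma on 9 arrays that are not adjusted for the number of probes; the dashed line is the median of the 8024 probes measured on all arrays and the dotted lines mark a 1.4-fold change. Intervals leave out 0 for atp1b1b and 1 atp1b2a probe in Day 4:Day 2, and include 0 for all 11 probes in both comparisons with control.

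The 10 probes measured on all arrays were also read together. Their median log2 fold change was -0.14 for Day 2:Control, 0.13 for Day 4:Control and 0.20 for Day 4:Day 2. The same medians over the 8024 measured probes were 0.05, 0.12 and 0.06. In Day 2:Control, 5 of the 10 had arrays entirely below control and 0 entirely above, while 12.9% of measured probes lay entirely below and 29.5% entirely above. In Day 4:Control, 3 of the 10 lay entirely above and 0 entirely below, against 29.6% and 3.13% of measured probes. In Day 4:Day 2, 4 of the 10 lay entirely above and 0 below, against 23.2% and 7.95%. These are counts of probes and not of genes. Both atp1a3b probes are among the 5, and both atp1b1a probes are among the 3 and among the 4. The comparisons share arrays, so that a low Day 2 value enters Day 2:Control and Day 4:Day 2 at once, and no list of this size was tested.

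Alpha and beta subunits are given apart for the same 10 probes. Against control, the 2 alpha probes, both for atp1a3b, were below 0 on both days, with medians of -0.14 and -0.08. They centred on 0.06 in Day 4:Day 2. The 8 beta probes had medians of -0.08, 0.17 and 0.24 in the 3 comparisons, and 7 of the 8 were above 0 in Day 4:Day 2. The difference between alpha and beta subunits was not tested. These signs depended on the scaling: with normexp background correction both alpha probes were above 0 in Day 2:Control and all 8 beta probes were below 0 in Day 4:Day 2.

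Under normexp background correction the measured probes moved, with a median of 0.48 for Day 2:Control, -0.14 for Day 4:Control and -0.64 for Day 4:Day 2. The whole array did not move with them. The normexp medians over all 21495 probes were -0.02, -0.13 and -0.06, against 0.12, 0.29 and 0.24 with the 50th percentile. Scaling to the 75th percentile, scaling on measured probes and quantile normalization kept the median over measured probes between -0.03 and 0.03. Each change was also taken relative to the median of the measured probes. The 50th percentile, 75th percentile and measured-probe scalings shift a whole array, so they give the same relative value by construction. Only quantile normalization and normexp add separate readings to the ranges and counts below. The atp1b1b value lay 0.33 to 0.45 above it in Day 4:Day 2 over the 5 scalings and the first atp1b2a probe 0.31 to 0.51 above it. The first atp1b1a probe lay 0.16 to 0.22 above it in Day 4:Control. The order of the probes still depended on the scaling: in Day 4:Day 2 the second atp1b3a probe lay 0.56 above that median with normexp, higher than any other subunit probe, and 0.04 above it with the 50th percentile. Of the 11 probes, 7 lay below that median in Day 2:Control under all 5 scalings and 3 above it. The counts were 4 below and 4 above in Day 4:Control, and 2 below and 6 above in Day 4:Day 2.

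**Figure D3:**
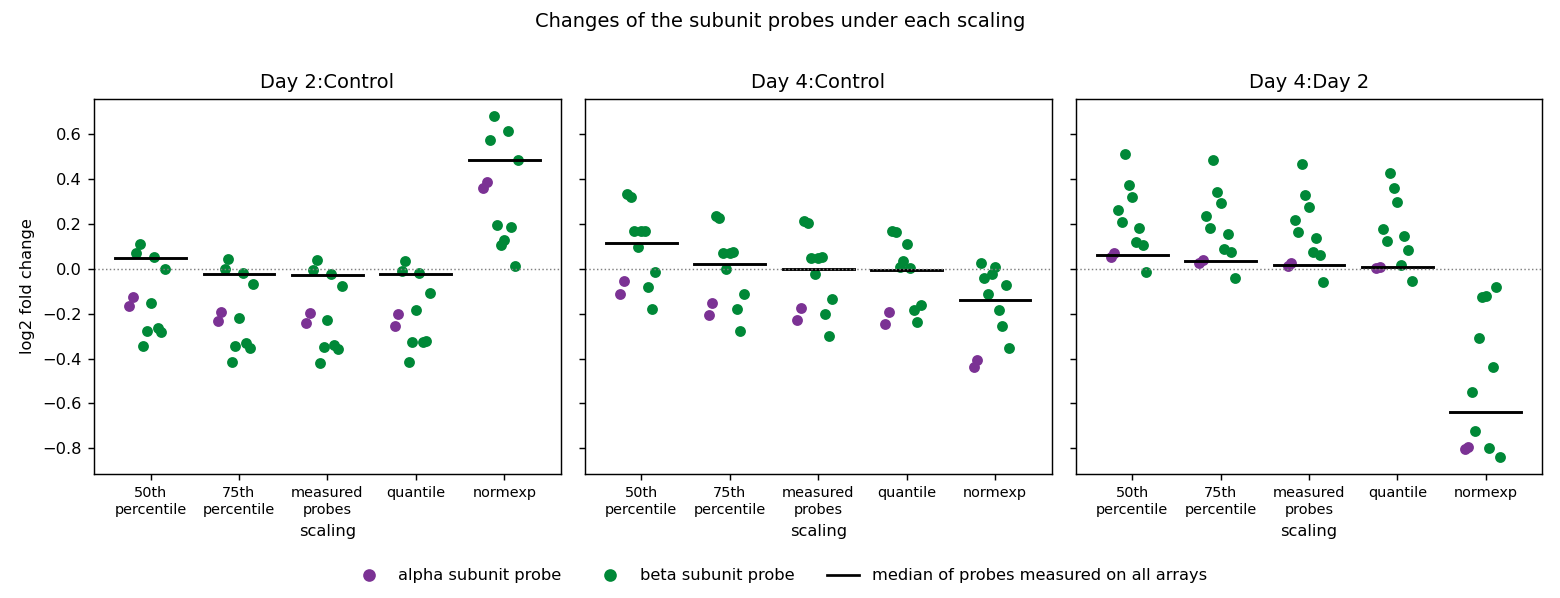
Log2 fold change (vertical axis) of the 11 measured subunit probes under 5 scalings (horizontal axis) in the 3 comparisons, 1 point per probe; black bars give the median of the 8024 probes measured on all arrays. The bar and the points move together, down to a median of -0.64 in Day 4:Day 2 under normexp, while both alpha probes stay below the bar in Day 4:Control.

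Slides held several groups, so each difference was also read within a slide. Slide 1 held replicate 1 of each group, slide 2 held replicate 2 of control and Day 2, and slide 3 held replicate 3 of control and Day 2 with replicates 2 and 3 of Day 4. In Day 2:Control, both atp1a3b probes, atp1b1b, both atp1b2a probes and both atp1b3a probes were below control on all 3 slides. In Day 4:Control both atp1a3b probes turned sign between slides, with 0.14 and 0.15 on slide 1 and -0.30 and -0.19 on slide 3.

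**Figure D4:**
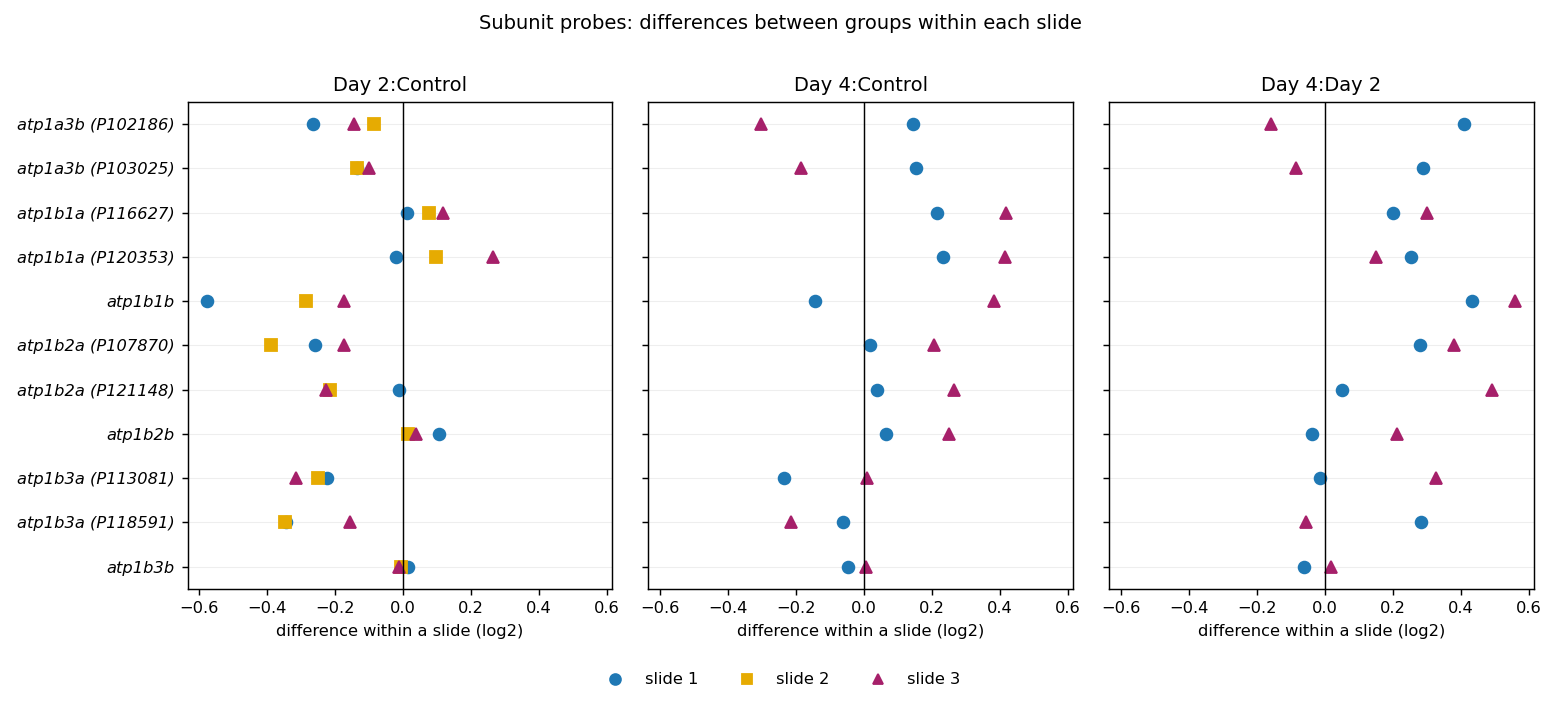
Difference in log2 signal between groups within each slide (horizontal axis) for the 11 measured subunit probes in the 3 comparisons; marker shape and colour give the slide, and slide 2 held no Day 4 array. The atp1b1b points lie left of 0 on all 3 slides in Day 2:Control and at 0.43 and 0.56 in Day 4:Day 2.

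The precision of the fit was similar for most of the 11 probes. Their SEs ran from 0.12 to 0.22 in Day 2:Control and from 0.13 to 0.23 in the comparisons with Day 4. The 95% intervals reached no further than 1.66-fold lower and 1.35-fold higher in Day 2:Control, 1.48-fold lower and 1.67-fold higher in Day 4:Control, and 1.32-fold lower and 1.90-fold higher in Day 4:Day 2.

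The Day 4 values rest partly on 1 array. Day 4 replicate 2 had the smallest share of spots well above background, 39.5% against 44.5% to 56.9% on the other arrays, and the highest local background. Local background was 129 to 153.5 on the arrays of slide 3, which held replicates 2 and 3 of Day 4, and 63.5 to 74 on slides 1 and 2. Day 4 replicate 2 gave the highest Day 4 value for 8 of the 11 subunit probes, replicate 1 for the other 3 and replicate 3 for 0. Without it, the Day 4:Control value was 0.09 for atp1b2b, against 0.17 with all arrays, and 0.05 for the first atp1b2a probe, against 0.10. It was -0.04 for the second atp1b2a probe, -0.14 for the first atp1b3a probe and -0.09 for atp1b3b. The Day 4:Control values without it for atp1b1a and the Day 4:Day 2 value without it for atp1b1b stand with those genes.

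Probes for the same gene agreed to different degrees across the 9 arrays. Pearson's r was 0.94 between the 2 atp1a3b probes, 0.88 between the 2 atp1b1a probes, 0.69 between the 2 atp1b2a probes and 0.34 between the 2 atp1b3a probes. Between genes, the highest value was 0.92 for atp1b1b with the first atp1b2a probe, and the lowest was -0.13 for the first atp1a3b probe with atp1b2b. These are descriptions over 9 arrays that share 3 pools and 3 slides. By the same measure, the named probes most like the first atp1b1a probe were hnrpa0l and men1 (r = 0.98 each), and those most like atp1b1b were fibpb (r = 0.98) and syt11a (r = 0.98). For the first atp1b2a probe they were smyd1a and mibp (r = 0.96 and 0.95), and for atp1b3b they were ralab and zgc:66169 (r = 0.99 and 0.97). Such values were common: 582 of 5594 named candidate probes had an r over 0.9 with the first atp1b1a probe, and 236 of 5595 with atp1b1b.

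Genes that work beside the pump in ion transport were also read. Of 61 such symbols, 16 were found on 21 probes, 14 of these were measured on all arrays, and 0 of 21 were significantly regulated in each comparison. The shares of all probes were 0.735%, 0.279% and 0.0651%, so a count of 0 in 21 is no result about these genes. Over the measured probes of this list, the median change on the log2 scale was 0.13 for Day 2:Control, 0.08 for Day 4:Control and -0.10 for Day 4:Day 2. The NKCC1 gene slc12a2, which brings potassium into the secreting cell beside the pump, gave -0.20 for Day 2:Control, 0.25 for Day 4:Control and 0.45 for Day 4:Day 2 (adjusted P = 0.95, 0.52 and 0.49, limma). The sgk1 gene encodes a kinase that raises pump number in mammalian epithelia, and its 4 probes gave 0.37 to 0.46 in Day 2:Control (adjusted P = 0.35 to 0.74, limma). They split in Day 4:Control, where A_15_P101253 and A_15_P118556 gave 0.40 and 0.45, and A_15_P107154 and A_15_P107450 gave 0.01 and 0.03 (adjusted P = 0.44 to 0.97, limma). In Day 4:Day 2, in the same order, the 4 probes of sgk1 gave -0.02, -0.01, -0.36 and -0.43 (adjusted P = 0.60 to 0.98, limma). The hsd11b2 gene, whose enzyme inactivates cortisol, gave -0.01 for Day 2:Control, 0.56 for Day 4:Control and 0.57 for Day 4:Day 2 (adjusted P = 0.98, 0.29 and 0.30, limma). A gene known in mammals to bind the beta 1 subunit, nkain1, gave -0.01, 0.19 and 0.20.

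Probes for FXYD regulators of the pump and for other P-type ATPases were read as well. Of 8 probes described as FXYD regulators, 3 were measured on all arrays and 0 were significantly regulated, which is near the share of all probes. The lowest value was -0.45 for TC283954 in Day 2:Control (adjusted P = 0.27, limma). Other P-type ATPases, the family of transporters to which the alpha subunit belongs, had 4 probes by array name. In Day 4:Control 1 of the 4 was called, against 0.279% of all probes. In Day 2:Control and Day 4:Day 2 the count was 0 of 4, against 0.735% and 0.0651%. The called probe was for atp2a1, the calcium pump of fast skeletal muscle, with -1.49 in Day 4:Control (adjusted P = 0.029, limma). The calcium pump gene atp2a2a has another array name, zgc:55380, and is outside these 4. It was called lower in both comparisons with control, with -2.34 on Day 2 and -1.96 on Day 4 (adjusted P = 0.0039 and 0.0125, limma). In Day 4:Control 6 of 35 skeletal muscle marker probes were called lower, actc1b, ckma and atp2a1 with the largest changes among them, against 0.181% of all probes.

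Markers of several other cell types moved with the groups, and their part in the subunit values was not tested. Where 0 probes of a marker list were called, that count is near the share of all probes. Neurons, which use alpha 3, had 0 of 23 marker probes called in each comparison, with medians of their measured probes of -0.15 in Day 2:Control and 0.32 in Day 4:Day 2. Their summed signal was 684 to 719 times the array median in control ears, 635 to 679 in Day 2 ears and 730 to 938 in Day 4 ears, and the highest was Day 4 replicate 2. Glia and myelin had 3 of 19 probes called lower in Day 2:Control, the 3 for gfap with -0.99 to -1.13, against 0.186% of all probes. The median of the measured probes of this list was -0.08 in that comparison. There the plp1b probes gave -0.49 and -0.54, and the 3 probes for fabp7a gave 0.33 to 0.44, none of them called. On this list 6 probes lay entirely below control and 3 entirely above, against 8.8% and 15.6% of all probes. Of the 19 probes, 18 were measured on all arrays, those for the myelin genes mpz and plp1b among them. Only the probe for the myelin gene mbp stayed below background throughout. The glia and myelin sums were 7234 to 7757 in control ears, 6738 to 7709 in Day 2 ears and 7461 to 10011 in Day 4 ears. Skin epithelium markers summed to 5276 to 5857 in Day 2 ears and 5381 to 7659 in Day 4 ears, against 5028 to 5318 in control ears, and 0 of 17 probes were called. Every Day 4 array lay above every control array for this sum, as for the neuron and pituitary sums. The sum of the ion transport genes did so too, with 1769 to 2207 on Day 4 against 1469 to 1596 in control ears. Among single measured probes 29.6% did so, which is not a share of sums. Red blood cell markers summed to 2083 to 2369 in Day 2 ears and 1869 to 2960 in Day 4 ears, against 2100 to 2296 in control ears, and 0 of 8 probes were called. Heart muscle markers summed to 16.1 to 18.2 in Day 2 ears and 17.1 to 25.9 in Day 4 ears, against 166 to 181 in control ears. In each comparison with control 5 of 12 probes were called lower, against 0.186% of all probes on Day 2 and 0.181% on Day 4. They were that for atp2a2a and those that the array names zgc:66286, most of which now carry the symbol myl13. The other 7 of the 12, for myl7, myh6, nppa, vmhc and cmlc1, were not well above background on any array. Pituitary markers summed to 37.3 to 43.5 in Day 2 ears and 40.0 to 52.0 in Day 4 ears, against 4.24 to 5.11 in control ears. Against control, 5 of their 7 probes (pomca, cga, fshb and 2 for lhb) were called higher on Day 2 and 4 on Day 4. The shares of all probes called higher were 0.549% and 0.0977%. Ear markers were present: the 7 probes for otic epithelium and otolith genes, stm and otop1 among them, were measured on all arrays and 0 were called. Their sums were 843 to 906 in Day 2 ears and 687 to 844 in Day 4 ears, against 773 to 829 in control ears. In Day 2:Control 5 of the 7 lay entirely above control and 1 entirely below, against 29.5% and 12.9% of measured probes. Of 5 hair cell probes only those for atoh1a and myo7aa were measured on all arrays and those for cdh23 and cacna1da on none.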

How the data were processed

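Each of the 9 single-dye Agilent arrays was read from the scanner output. The authors deposited the intensity of every spot as Feature Extraction wrote it, corrected for background within each array and not scaled between arrays, with the mean signal, local background and detection flags. Their 3 comparison tables hold fold changes, P-values and 6 columns of normalized group values, none of which were used.

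Without control and outlier spots, each intensity was log2-transformed and set against the 50th percentile of its array, and both spots of a probe were averaged. Tests were run in limma 3.58.1 under R 4.3.3 (lmFit, then eBayes) over 21495 probes and 9 arrays, with group and slide as terms, and were tested on simulated data. Python 3.11.15 with pandas 2.3.3, numpy 2.4.6 and matplotlib 3.10.9 handled the tables and plots. Arrays with the same barcode stem and scan time were taken as 1 slide; slide 3 was scanned on another day. By the methods every slide should hold all 3 time points once, and the scanner output shows this for slide 1 only. Control and Day 2 arrays of the same number lay on 1 slide, and their deviations from the group means were correlated (r = 0.50, 0.27 and 0.54 over 8024 probes), while Day 4 arrays did not follow their numbers (r = -0.06 to 0.12).

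Significant regulation meant a 1.4-fold change or more with P at or under 0.05 after Benjamini-Hochberg adjustment across the array, as in the study. Adjusted P from limma refers to that model where no other is named. Members and gene lists were chosen with earlier results of these data known. FXYD probes were picked by description after the files were read. Each subunit probe is accounted for, those with separated arrays in full. The 2 named probes with the highest Pearson correlation over 9 arrays were taken as most like a subunit probe and are given for 4 of them. List members are named where called, at most 3 in each direction except in the heart muscle and pituitary lists, where more are named. The members slc12a2, sgk1, hsd11b2, nkain1, fabp7a, mpz, plp1b and TC283954 were chosen after their values were seen. Of the 14 member probes given, 11 were named by accession and 3 by symbol, and results for the other 4 are not reported here. Sequences are not shown. The number of arrays limits the precision.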

Additional observations from a re-analysis of the deposited data

How the results depend on the processing

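The counts of subunit probes called were 0 in each comparison under the 9 fits that left out 1 array each (0 to 0) and under 8 of 11 other alternatives. The exceptions, in Day 4:Day 2 only, gave a count of 1 (atp1b1b) with dim probes removed, with trend and robust variance, and with the methods' t-test before adjustment. That t-test called 2.94% of all probes there. Some settings called hardly any probe on the array, so a count of 0 was fixed in advance. Normexp called 1, 0 and 0 of 21495 probes in the 3 comparisons. The fit on the 6 arrays of a comparison called 0 in Day 4:Day 2, and the adjusted t-test 0 in both Day 4 comparisons. Leaving out 1 array gave 0 calls in Day 4:Day 2, except 6 without Day 4 replicate 2. Quantile normalization brought atp1b1b and 1 atp1b3a probe to adjusted P of 0.0447 and 0.0407 in Day 2:Control (limma) with changes under 1.4-fold.

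Normexp background correction reversed 22 of 33 single changes. In Day 2:Control it gave 0.36 and 0.39 for atp1a3b, 0.20 for atp1b1b, 0.10 and 0.13 for atp1b2a, 0.18 and 0.011 for atp1b3a and 0.49 for atp1b3b. In Day 4:Control it gave -0.039 for atp1b1a, -0.11 for atp1b1b, -0.021 for atp1b2a and -0.18 for atp1b2b. In Day 4:Day 2 it gave -0.80 and -0.79 for atp1a3b, -0.55 and -0.72 for atp1b1a, -0.31 for atp1b1b, -0.13 and -0.12 for atp1b2a, -0.80 for atp1b2b and -0.44 and -0.081 for atp1b3a. The cause was not tested. Other scalings reversed only changes near 0. For atp1b2b in Day 2:Control they gave -0.017 with the 75th percentile, -0.023 with measured probes and -0.017 with quantile scaling. For atp1b1a in Day 2:Control, measured probes and quantile scaling gave -0.0056 and -0.0094, and for atp1b2a in Day 4:Control measured probes gave -0.021.

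Fits without the slide, with the replicate block and by the methods' t-test each gave 0.033 for atp1b3b in Day 4:Control and 0.034 for atp1b3b in Day 4:Day 2. The replicate block, which pairs arrays by number, left 0 subunit probes called, and over all probes it called 89, 57 and 13.

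Leaving out 1 array at a time turned the sign of 10 changes at least once. In Day 2:Control the values ran from -0.0022 to 0.091 for atp1b2b and from -0.017 to 0.014 for atp1b3b. In Day 4:Control they ran from -0.31 to 0.015 and from -0.20 to 0.062 for the 2 atp1a3b probes, from -0.042 to 0.31 for the second atp1b2a probe, from -0.14 to 0.036 for the first atp1b3a probe and from -0.093 to 0.049 for atp1b3b. In Day 4:Day 2 they ran from -0.15 to 0.18 and from -0.074 to 0.19 for atp1a3b and from -0.092 to 0.050 for atp1b3b. Over all probes the calls ran from 4 to 579 in Day 2:Control, from 3 to 80 in Day 4:Control and from 0 to 6 in Day 4:Day 2.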
